A study of Homo sapiens with 6 samples.

Results

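CDC42 and 9 proteins that bind it or are named for it were followed in the RNA of HCT-116 cells, an established human colorectal carcinoma line. The genes were CDC42, its kinases CDC42BPA, CDC42BPB, PAK1 and PAK2, its actin effector WASL, the small binding proteins CDC42EP1, CDC42EP3 and CDC42SE1, and the scaffold IQGAP1. They were chosen by symbol from the deposited expression table, with earlier results of these data known. All 10 members had 1 row each among 27918 rows. Cells carried either a control GapmeR (GapNC) or a GapmeR against the long noncoding RNA CASC9 (GapC9), each at 10 nM, with 3 libraries per group. A GapmeR is a single-stranded antisense oligonucleotide with locked ends whose DNA core lets RNase H cut the paired RNA. The methods give 48 h between transfection and harvest, whereas the account of the sequencing gives 24 h, so the time is not settled. Values are FPKM, the number of fragments normalised to transcript length and to the mapped fragments of the library. The methods state in general that experiments were run at least 3 times, but not whether the 3 libraries of a group came from separate cultures, so the p-values measure the spread between these libraries, which may be technical.

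CDC42 is a small GTPase that cycles between an active form bound to GTP and an inactive form bound to GDP. Exchange factors load it with GTP, GTPase-activating proteins (GAPs) end the signal, and dissociation inhibitors (GDIs) hold it in the cytosol. Active CDC42 binds effectors that build filopodia, orient the cell and, in epithelium, set apical polarity and junctions. The MRCK kinases (CDC42BPA and CDC42BPB) and the PAK kinases act on myosin and cofilin regulators, WASL drives branched actin, and IQGAP1 links CDC42 to the cortex.

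The targeted RNA was examined first. CASC9 was listed at 0, 0.0108 and 0 FPKM in GapNC replicates 1, 2 and 3, and at 0.0528, 0.107 and 0 FPKM in GapC9 replicates 1, 2 and 3. It was thus near 0 in all 6 libraries and not lower in those labelled GapC9, so the groups are named here by their labels and CASC9 gives no check of them. Epithelial markers of the line were present, with EPCAM at 62.3 to 88.4 FPKM and KRT8 at 316 to 480 FPKM. In contrast, VIL1, CDX1 and LGALS4 were below the filter and CEACAM5 had no row under its name. Of the 10 markers of other cell types, 3 passed the filter: COL1A1 at 1.06 to 1.54 FPKM, ACTA2 at 2.56 ± 0.160 FPKM in GapNC and 3.30 ± 0.0403 FPKM in GapC9 (SD, n = 3; limma adjusted p = 0.104), and CD68 only in a row joined with other genes. The markers PTPRC, CD3E, PECAM1, VWF, COL1A2 and ALB were at 0.0467 FPKM or less, and DCN had no row under its name. The table gives FPKM and no counts. Where the usual gap between low FPKM values stands for 1 fragment, a library holds roughly 22.8 to 24.4 M (mega) fragments and a member between 463 and 5802 of them. GapNC replicate 1 stood apart in base composition, where a gene's deviation from its 6-library mean tracked its GC content with a Spearman correlation, over 10117 genes, of 0.618, against −0.384 to 0.0216 in the other libraries. Calls that were lost without this library are given as such beside the gene.

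The primers with which the study itself measured 2 of these genes by RT-qPCR are given here. They come from its oligonucleotide list and were located in the GENCODE 29 transcripts of GRCh38, with the gene's chromosome and strand.
CDC42 forward: tgacagattacgaccgctgagtt
CDC42 reverse: ggagtctttggacagtggtgag
CDC42BPB forward: gcatcggaacagcctacaaagg
CDC42BPB reverse: agacttggctcgcaatgacacc
CDC42 (ENSG00000070831) spans 22052627 to 22092946 of chromosome 1, plus strand. Its forward primer sat in exon 4 of 6 of the longest transcript, at chr1:22086452-22086474, and its reverse primer in exon 5, at chr1:22086685-22086706, both in coding sequence, with a product of 135 bases. All 5 annotated CDC42 transcripts held the pair, and so did transcripts of AL031281.2, an overlapping gene on the same strand, and of the pseudogene CDC42P6. CDC42BPB (ENSG00000198752) spans 102932379 to 103057462 of chromosome 14, minus strand. Its forward primer sat in exon 25 of 37 of its longest transcript, at chr14:102950476-102950497. The reverse primer sat in exon 26, at chr14:102949775-102949796, and both lay in coding sequence. The product of 162 bases could come from 2 of 9 annotated transcripts and from no other gene. The FPKM row of CDC42BPB lists all 9 and 1 assembled transcript, so it is not limited to those 2.

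Reads of CDC42 could be shared with copies more than those of the other members. Of the 2225 windows of 50 bases in its longest listed transcript, 89.1% also occurred in transcripts of other genes, mostly the overlapping AL031281.2. No level of AL031281.2 is given here, and how reads were divided between it and CDC42 was not tested. Of the windows, 13.3% occurred in 6 genes elsewhere, chiefly CDC42 pseudogenes. The pseudogene CDC42P6 was listed at 1.06 FPKM in GapNC replicate 1, at 0.995 FPKM in GapC9 replicate 2 and at 0 in the other 4 libraries, far below the level of CDC42 itself. PAK2 shared 2.79% of its windows with AC068446.1 and CDC42EP3 shared 0.106% with a pseudogene. The other 7 members, CDC42BPB among them, shared none. Genes on the opposite strand overlap 8 of the 10 members (all but WASL and CDC42EP1), and no source says that fragments were assigned by strand.

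The sequences just upstream of CDC42 and CDC42BPB are shown because these genes were the 2 that passed the test below. They were taken from RefSeq on GRCh38.p14, where all 10 members matched, within the 250 bases before the annotated start and outside the GENCODE gene. Capitals mark the GC box, GGGCGG on either strand.
CDC42, plus strand, chr1:22052459-22052626: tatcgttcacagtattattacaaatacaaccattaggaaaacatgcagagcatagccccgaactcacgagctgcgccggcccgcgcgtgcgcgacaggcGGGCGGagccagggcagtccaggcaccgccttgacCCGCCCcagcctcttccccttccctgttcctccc
CDC42BPB, minus strand, chr14:103057550-103057799: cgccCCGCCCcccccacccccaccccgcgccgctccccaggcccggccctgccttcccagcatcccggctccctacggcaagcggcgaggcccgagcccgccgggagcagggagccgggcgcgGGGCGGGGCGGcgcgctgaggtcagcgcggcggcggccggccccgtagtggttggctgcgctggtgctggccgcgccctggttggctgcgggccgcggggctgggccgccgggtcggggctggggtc
In the full windows of 250 bases, GC content was 64.8% for CDC42 and 83.6% for CDC42BPB, beside a median of 58% over all 35116 promoters of the table. The GC box occurred 2 times for CDC42 and 3 times for CDC42BPB. All 10 members had it in at least 1 of their windows, the 8 that did not pass the test as well, and 42.6% of all promoters held it.

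CDC42 and its kinase CDC42BPB fell in the libraries labelled GapC9, whereas the related kinases CDC42BPA and PAK1 were listed a little higher there without passing the adjusted threshold, and PAK2, WASL, CDC42EP3, CDC42SE1 and IQGAP1 had overlapping groups. By limma on log2(FPKM + 0.1) with Benjamini-Hochberg adjustment over 16028 rows, 2 of the 10 members passed an adjusted p of 0.05, both lower, against 5.10% of all rows lower and 1.89% higher. The same 2 members also passed the cutoffs of the study, applied here to the limma p in place of its edgeR p, with group means that differ at least 2 times in FPKM (a ratio of 0.5 or less when lower) with an unadjusted p under 0.05, which 4.32% of all rows passed as lower and 2.10% as higher. An unadjusted p under 0.05 was reached by 4 members (2 lower and 2 higher), beside 25.9% of all rows. The 3 libraries of each group did not overlap for 5 members (3 lower and 2 higher), beside 34.2% of all rows. Because the members were picked with earlier results of these data known, these shares describe the 10 and test nothing about them. The median log2 fold change of the 10 was −0.13, close to −0.08 over all rows tested. Of the 1120 rows past the adjusted threshold, 817 were lower and 303 higher, and after scaling each library to its median the split was 511 lower and 362 higher of 873, with both CDC42 and CDC42BPB still among the lower.

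**Figure D1:**
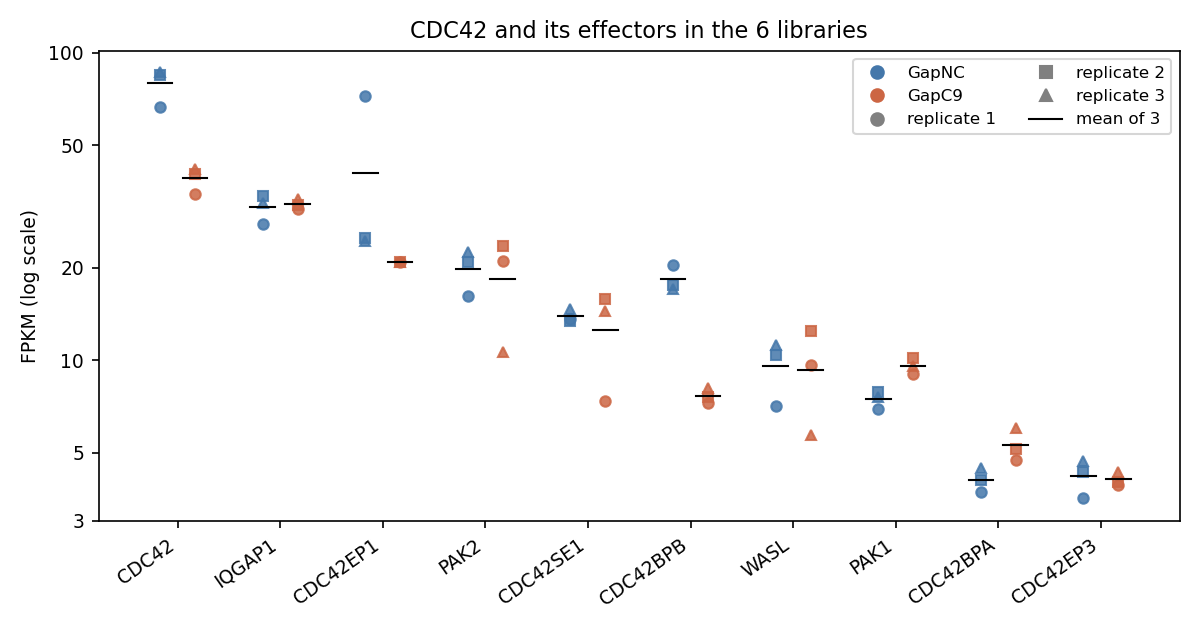
FPKM on a log axis for the 10 genes, ordered by their mean over all libraries, with 1 point per library (shape for replicate, color for group) and a bar at each group's mean. CDC42 and CDC42BPB sit lower in all 3 libraries labelled GapC9, and single libraries stand apart for CDC42EP1, PAK2, WASL and CDC42SE1.

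CDC42, the GTPase itself, was listed at 66.9, 85.1 and 86.7 FPKM in GapNC replicates 1, 2 and 3, and at 34.8, 40.3 and 42.0 FPKM in GapC9 replicates 1, 2 and 3. Every library labelled GapC9 was below every GapNC library, and replicate 1 was the lowest of each group. The mean fell from 79.6 ± 11.0 to 39.0 ± 3.79 FPKM (SD, n = 3), which is a ratio of 0.491. Its log2 fold change was −1.02 (standard error 0.14, 95% interval −1.36 to −0.68, limma adjusted p = 0.0226). With 1 library left out in turn, the log2 fold change stayed between −1.14 and −0.94, but the adjusted p ran from 0.0239 to 0.0970 and was under 0.05 only without GapNC replicate 1. The same holds of the table at large, where 34 to 814 rows passed with 1 library left out in place of 1120.

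CDC42BPB, the kinase MRCKβ, which phosphorylates the myosin light chain and its phosphatase, had 20.4, 17.6 and 17.1 FPKM in GapNC replicates 1, 2 and 3. The libraries labelled GapC9 had 7.28, 7.56 and 8.12 FPKM. The groups were wide apart, and the spread within each was small beside the gap. The mean fell from 18.3 ± 1.77 to 7.65 ± 0.426 FPKM (SD, n = 3). This was −1.25 on the log2 scale (standard error 0.11, 95% interval −1.52 to −0.97, limma adjusted p = 0.0147), which ranked 28 of 16028 rows by p. With 1 library left out the log2 fold change was −1.29 to −1.17 and the adjusted p 0.0214 to 0.0698. The adjusted p stayed under 0.05 without GapNC replicate 1 or without GapNC replicate 3, and not in the other 4 fits.

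CDC42BPA, the kinase MRCKα, a paralog of CDC42BPB on the minus strand of chromosome 1 (226989865 to 227318474), was listed at 3.72, 4.07 and 4.45 FPKM in the GapNC libraries while the libraries labelled GapC9 held 4.72, 5.12 and 6.02 FPKM. All 3 values labelled GapC9 lay above the GapNC values, by a margin smaller than the spread within either group. The log2 fold change of 0.36 (standard error 0.14, 95% interval 0.03 to 0.70) had an unadjusted p of 0.0386 by limma and an adjusted p of 0.169, which is past no threshold after adjustment.

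The MRCK kinases were therefore also compared as a family, a comparison chosen after their values were seen. The ratio of CDC42BPB to CDC42BPA in FPKM was 5.47, 4.31 and 3.84 in the GapNC libraries and 1.54, 1.48 and 1.35 in those labelled GapC9. The groups did not overlap, and the exact 2-sided permutation p of 0.10 is the smallest that 3 against 3 libraries allow. CDC42BPG, the third gene of the family, had 7.02, 5.38 and 4.60 FPKM in the GapNC libraries and 5.42, 4.19 and 4.22 FPKM in those labelled GapC9, with overlapping groups. Of the summed FPKM of the MRCK genes, CDC42BPB made up 65.3% ± 0.265 in GapNC and 43.6% ± 1.59 in GapC9 (SD, n = 3), while the sum went from 28.1 ± 2.67 to 17.6 ± 0.764 FPKM. CDC42BPB was thus the most abundant MRCK gene in every library.

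**Figure D2:**
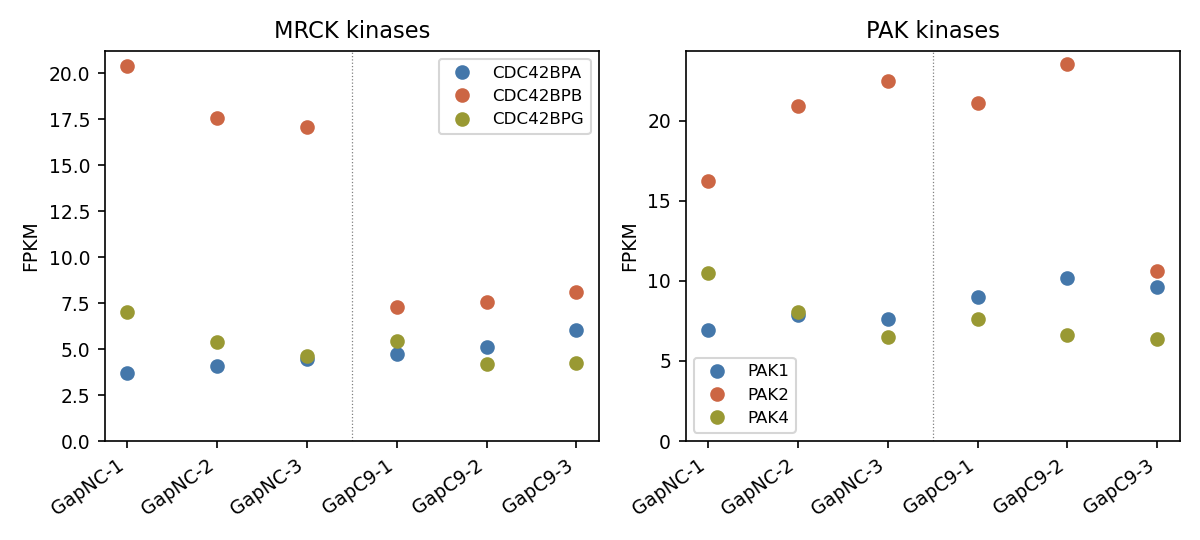
FPKM of the MRCK genes (left) and of PAK1, PAK2 and PAK4 (right) in each library, on axes that start at 0, with GapNC left and GapC9 right of the dotted line. CDC42BPB drops toward its paralogs in the GapC9 libraries, from 17.1 to 20.4 FPKM down to 7.28 to 8.12 FPKM, and PAK2 is low in GapC9 replicate 3 only.

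PAK1, a kinase that acts on LIM kinase and on cell spreading (chromosome 11, 77321707 to 77474635, minus strand), had 6.92, 7.85 and 7.61 FPKM in the GapNC libraries. Those labelled GapC9 had 9.0, 10.2 and 9.59 FPKM, all of them above the highest GapNC value. The mean was 7.46 ± 0.480 against 9.61 ± 0.618 FPKM (SD, n = 3), or 0.36 on the log2 scale (standard error 0.11, 95% interval 0.10 to 0.62, limma adjusted p = 0.0993). After a correction for the GC trend of each library the log2 fold change was 0.44 and the adjusted p 0.0355, so the call for PAK1 turned on this setting.

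PAK2, the broadly expressed kinase of the same group (chromosome 3, 196739857 to 196832647, plus strand), was listed at 16.2, 20.9 and 22.5 FPKM in GapNC and at 21.1, 23.5 and 10.6 FPKM in GapC9 replicates 1, 2 and 3. GapC9 replicate 3 was less than any other library, and the remaining 5 overlapped. Its log2 fold change of −0.18 (95% interval −0.97 to 0.61, limma adjusted p = 0.769) became 0.18 without that library and −0.32 without GapNC replicate 1. PAK1, PAK2 and PAK4 summed to 35.7 ± 1.79 FPKM in GapNC and 34.9 ± 7.28 FPKM in GapC9 (SD, n = 3).

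WASL, the neuronal Wiskott-Aldrich protein N-WASP that activates branched actin (chromosome 7, 123681935 to 123749067, minus strand), had 7.08, 10.4 and 11.2 FPKM in the GapNC libraries and 9.66, 12.4 and 5.72 FPKM in those labelled GapC9. As for PAK2, GapC9 replicate 3 was the lowest of all and the groups overlapped. The log2 fold change was −0.09 (95% interval −0.88 to 0.70, limma adjusted p = 0.895), 0.22 without that library and −0.29 without GapNC replicate 1. Within a library the ratio of WASL to PAK2 varied less than either gene, at 0.437, 0.498 and 0.497 in GapNC and 0.459, 0.527 and 0.539 in GapC9. WASL made up 97.1% of the summed FPKM of WAS and WASL in GapNC and 97.5% in GapC9, so the hematopoietic paralog WAS was a minor part of both.

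IQGAP1, a scaffold for CDC42, actin and calmodulin (chromosome 15, 90388218 to 90502243, plus strand), had 27.8, 34.3 and 32.5 FPKM in GapNC and 31.1, 32.1 and 33.5 FPKM in GapC9. The groups overlapped. The log2 fold change was 0.04, and its 95% interval of −0.23 to 0.30 bounds the difference more closely than for most members. Against this scaffold, the ratio of CDC42 to IQGAP1 was 2.40, 2.48 and 2.67 in the GapNC libraries and 1.12, 1.26 and 1.25 in those labelled GapC9 (exact permutation p = 0.10, the smallest possible). Its paralog IQGAP3, which is linked to dividing cells, fell from 9.01 ± 0.927 to 5.21 ± 0.152 FPKM (SD, n = 3; log2 fold change −0.77, limma adjusted p = 0.0255). IQGAP1 made up 76.9% ± 3.61 of the summed FPKM of IQGAP1, IQGAP2 and IQGAP3 in GapNC and 85.5% ± 0.709 in GapC9.

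CDC42EP1, a Borg protein that ties CDC42 to septins (chromosome 22, 37560447 to 37569405, plus strand), was listed at 72.7, 24.9 and 24.5 FPKM in GapNC replicates 1, 2 and 3. All 3 libraries labelled GapC9 had 20.8 FPKM. The GapNC values lay above these, but replicate 1 was 2.94 times the mean of the other two. The log2 fold change was −0.77 with an interval of −1.81 to 0.28 (limma adjusted p = 0.317), and −0.25 without GapNC replicate 1, whose removal leaves a GapNC mean of 24.7 FPKM. CDC42EP1 had the highest GC content of the members, 66.4% in its longest listed transcript beside a median of 49.0% over the rows tested.

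GC content and the deviation of GapNC replicate 1 went together over the 10 members. Relative to its group's mean on the log2 scale, CDC42EP1 was 1.04 higher in this library and CDC42BPB, at 55.6% GC, 0.15 higher, while WASL at 40.3% was −0.40, PAK2 at 40.0% −0.28 and CDC42 at 43.4% −0.24. Pearson's r over the 10 members was 0.963 in this library and −0.927 and −0.963 in GapNC replicates 2 and 3, where the opposite sign follows in part from deviations that sum to 0 within a group. These values describe genes that share a library. Leaving this library out took the log2 fold change of CDC42 to −1.14, the farthest from 0 of its 6 fits, and that of CDC42BPB to −1.17, the nearest to 0. After the GC correction CDC42 was at −1.03 (limma adjusted p = 0.00533) and CDC42BPB at −1.04 (limma adjusted p = 0.00468).

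**Figure D3:**
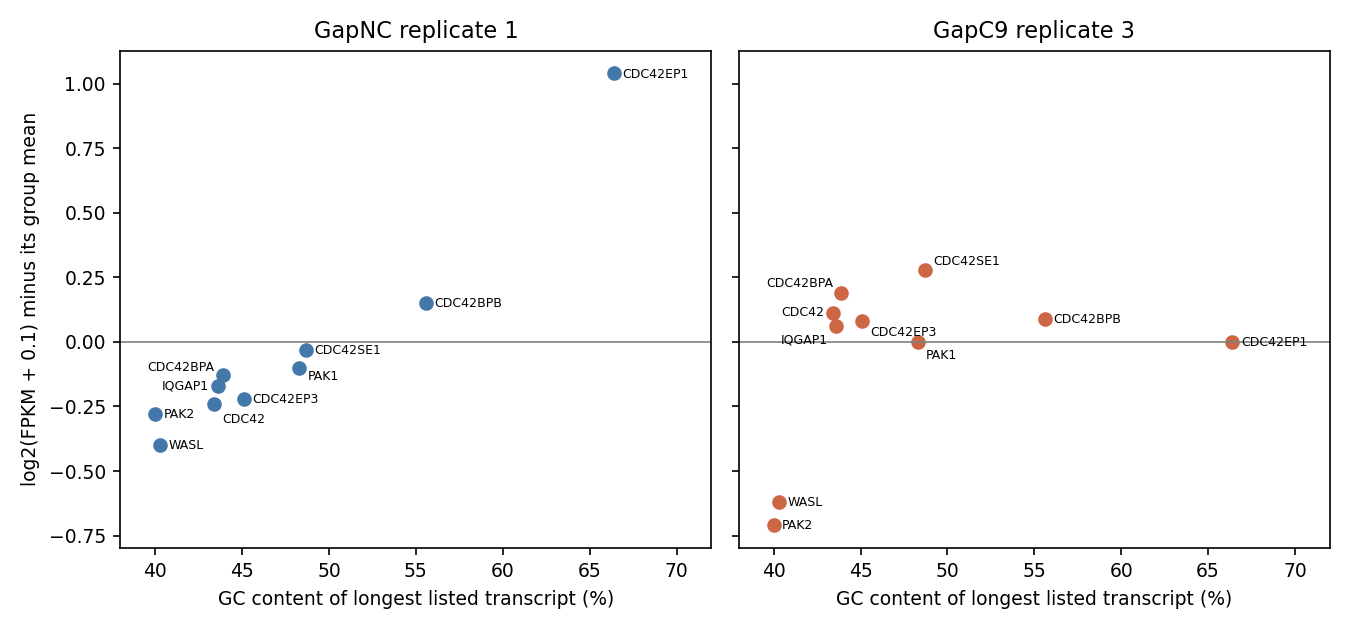
Deviation of each gene's log2(FPKM + 0.1) from its group mean (vertical axis) against the GC content of its longest listed transcript in percent (horizontal axis), for GapNC replicate 1 (left) and GapC9 replicate 3 (right). In GapNC replicate 1 the points climb with GC content up to CDC42EP1 at 1.04, whereas in GapC9 replicate 3 WASL (−0.62) and PAK2 (−0.71) alone lie far below 0.

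CDC42EP3, a second Borg protein (chromosome 2, 37641882 to 37738468, minus strand), had 3.57, 4.32 and 4.68 FPKM in GapNC and 3.93, 4.01 and 4.33 FPKM in GapC9. The groups overlapped fully, with a log2 fold change of −0.03 (95% interval −0.36 to 0.31, limma adjusted p = 0.926). CDC42SE1, a small effector that binds the membrane and limits CDC42 signaling (chromosome 1, 151050971 to 151070325, minus strand), was listed at 13.6, 13.4 and 14.7 FPKM in GapNC and at 7.35, 15.8 and 14.5 FPKM in GapC9. Here GapC9 replicate 1 was low and the other libraries were alike. The log2 fold change of −0.22 (95% interval −0.94 to 0.50, limma adjusted p = 0.677) was 0.12 without that library.

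**Figure D4:**
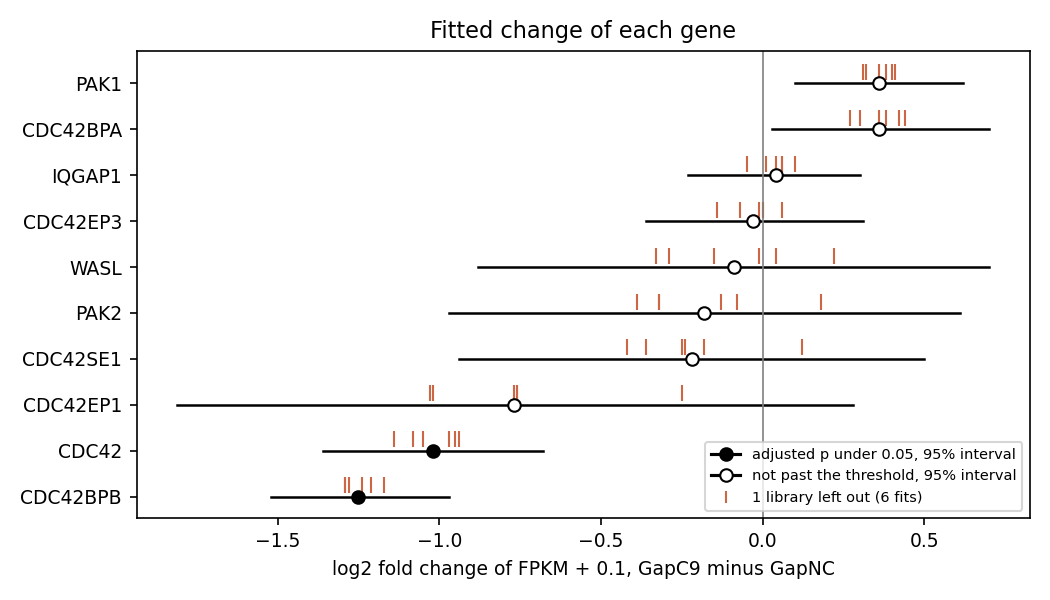
Fitted log2 fold change (GapC9 minus GapNC) of each gene with its 95% interval, filled where the adjusted p was under 0.05, and ticks above it for the 6 fits that leave out 1 library. The intervals of CDC42 and CDC42BPB lie wholly below 0, and those of PAK2, WASL, CDC42SE1 and CDC42EP1 are the widest.

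A library at least 1.5-fold apart from both others of its group was found for 4 of the 10 members (40.0%), namely PAK2, WASL, CDC42EP1 and CDC42SE1, and for 29.2% of the 10229 rows with a mean of at least 1 FPKM. FPKM divides by length, and mean levels were ordered between genes on it, without correction for GC content or for reads shared with other genes. In GapNC the order of mean FPKM was CDC42, CDC42EP1, IQGAP1, PAK2, CDC42BPB, CDC42SE1, WASL, PAK1, CDC42EP3 and CDC42BPA. The place of CDC42EP1 rested on GapNC replicate 1, and without it its mean of 24.7 FPKM was below IQGAP1 in both remaining libraries. Neighbours in this order did not overlap between IQGAP1 and PAK2, between CDC42BPB and CDC42SE1, between CDC42SE1 and WASL, and between PAK1 and CDC42EP3. In the libraries labelled GapC9 it was CDC42, IQGAP1, CDC42EP1, PAK2, CDC42SE1, PAK1, WASL, CDC42BPB, CDC42BPA and CDC42EP3. There CDC42 stood above IQGAP1, IQGAP1 above CDC42EP1, and both CDC42BPB and CDC42BPA above the gene that followed them, without overlap. CDC42 was first in both groups, and CDC42BPB went from rank 5 to rank 8.

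Across the 6 libraries, the rows most like CDC42BPB on the log2 scale, of 10228 with a mean of at least 1 FPKM, were CARS2 (Pearson's r = 0.9990), TINF2 (0.9975) and SH3D19 (0.9975). Those most like CDC42 were RAI14 (0.9992), RIC1 (0.9990) and NUDCD1 (0.9983). Among the members themselves r was 0.933 between CDC42 and CDC42BPB and 0.963 between PAK2 and WASL. These values describe 6 libraries in 2 groups, and so carry the difference between the groups.

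The other genes of the pathway were drawn from 8 lists with 149 genes in all, of which 131 rows were tested. These lists too were made with earlier results of these data known. Of these rows, 16 passed the adjusted threshold, 2 higher and 14 lower, beside 1.89% and 5.10% of all rows. The fitted change was negative for 100 and positive for 31 rows, beside 9035 and 6993 of all 16028 rows. The median log2 fold change was −0.27 beside −0.08 over all rows. The count of 16 rested on single libraries, since it was 11 without GapNC replicate 1, 3 without GapNC replicate 3 and 0 without GapNC replicate 2 or any 1 library labelled GapC9.

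Among 17 tested rows of small GTPases related to CDC42, 1 passed and was higher: RND3, a GTPase that opposes RhoA signaling, rose from 13.1 ± 1.15 to 21.1 ± 1.52 FPKM (SD, n = 3; log2 fold change 0.69, limma adjusted p = 0.0303). RHOA, the most abundant gene of the list, had 226, 248 and 251 FPKM in GapNC and 217, 230 and 94.8 FPKM in GapC9, where replicate 3 was low as it was for PAK2 and WASL. RAC1, the closest well-known relative of CDC42, had 29.7, 32.7 and 38.1 FPKM in GapNC and 35.9, 26.2 and 38.1 FPKM in GapC9. The ratio of CDC42 to RAC1 averaged 2.38 ± 0.197 in GapNC and 1.2 ± 0.298 in GapC9 (SD, n = 3; exact permutation p = 0.10, the smallest possible). The ratio of CDC42 to RHOA overlapped between the groups (exact permutation p = 0.400).

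Of 23 tested rows of CDC42 exchange factors, 4 passed and all were lower (median of the list −0.33). VAV2 had 9.28, 8.43 and 5.28 FPKM in GapNC and 3.01, 2.52 and 2.97 FPKM in GapC9 (log2 fold change −1.37, limma adjusted p = 0.0314). VAV1 (−0.94) and 1 of the DOCK9 rows (−0.74) also fell, with limma adjusted p of 0.0314 and 0.0255. Without GapNC replicate 1, VAV2 (limma adjusted p = 0.0591) and VAV1 (limma adjusted p = 0.0570) no longer passed. DOCK9, an exchange factor for CDC42 itself, had a second and more abundant row at 11.4 ± 2.39 and 11.7 ± 0.563 FPKM (SD, n = 3; log2 fold change 0.05, limma adjusted p = 0.884), so the row that fell, at 4.11 and 2.43 FPKM, was the lesser of its signal. DNMBP (Tuba), the highest of the list, averaged 19.2 ± 4.39 and 16.0 ± 3.81 FPKM (SD, n = 3; limma adjusted p = 0.502).

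The 18 tested rows of GAPs and GDIs, which turn CDC42 and its relatives off, had 4 lower and none higher past the threshold (median −0.28). ARHGAP1, the GAP known as p50RhoGAP, fell from 10.7 ± 1.42 to 6.41 ± 0.755 FPKM (SD, n = 3; log2 fold change −0.73, limma adjusted p = 0.0431). ARHGAP35 (−1.23), a GAP mainly for RhoA, ABR (−1.2), a GAP for RAC1 and CDC42, and STARD13 (−0.97) also fell, with limma adjusted p of 0.0159, 0.0192 and 0.0454. Without GapNC replicate 1, ARHGAP1 (limma adjusted p = 0.0631) and STARD13 (limma adjusted p = 0.0926) no longer passed. The GDI gene ARHGDIA, the highest of the list, averaged 57.2 ± 7.97 and 53.0 ± 9.40 FPKM (SD, n = 3; limma adjusted p = 0.703).

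Among 27 tested rows of other CDC42 effectors only IQGAP3 passed (median −0.26), and DIAPH1, a formin and the highest of the list, averaged 33.7 ± 4.01 and 42.0 ± 4.39 FPKM (SD, n = 3; limma adjusted p = 0.193). Of 14 rows of WASL partners and subunits of the actin-branching complex, none passed the adjusted limma threshold, and the median was −0.09. At an unadjusted limma p under 0.05, 3 were lower and none higher, beside 2700 lower and 1457 higher of all 16028 rows. ACTR2, a core subunit of that complex, had 60.8, 87.2 and 61.6 FPKM in GapNC and 60.8, 97.7 and 104 FPKM in GapC9, with overlapping groups.

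Of 15 rows of PAK and MRCK targets, 1 rose and 1 fell (median −0.07). MYL12A, a myosin regulatory light chain, rose from 35.2 ± 0.520 to 53.2 ± 2.68 FPKM (SD, n = 3; log2 fold change 0.59, limma adjusted p = 0.0232). Its close paralog MYL12B averaged 109 ± 4.64 and 120 ± 3.71 FPKM (SD, n = 3; limma adjusted p = 0.309). Of the windows of 50 bases in the longest MYL12A transcript, 6.44% also occurred in MYL12B. SSH2, a cofilin phosphatase, fell from 1.81 ± 0.321 to 0.770 ± 0.213 FPKM (SD, n = 3; log2 fold change −1.15, limma adjusted p = 0.0426), and did not pass without GapNC replicate 1 (limma adjusted p = 0.0909).

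The polarity partners of CDC42 had 6 tested rows, all with a negative fitted change, as had 9035 of all 16028 rows. The median of the list was −0.66, and 2 of its rows passed. PARD3, the scaffold of the apical complex, had 4.99, 4.85 and 5.06 FPKM in GapNC and 2.79, 2.41 and 2.57 FPKM in GapC9 (log2 fold change −0.92, limma adjusted p = 0.0172). PRKCZ, an atypical protein kinase C of that complex, fell from 3.55 ± 0.465 to 1.98 ± 0.138 FPKM (SD, n = 3, log2 fold change −0.80, limma adjusted p = 0.0315). PRKCI, the more abundant atypical kinase of the list, averaged 13.5 ± 2.49 and 9.51 ± 1.15 FPKM, with overlapping groups (SD, n = 3, limma adjusted p = 0.154). SCRIB, the highest of the list, averaged 46.0 ± 10.9 and 31.9 ± 4.99 FPKM (SD, n = 3; limma adjusted p = 0.179).

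The septins, filament proteins that the Borg proteins bind, had 11 tested rows, of which 2 fell (median −0.35). SEPT10 had 17.1, 20.8 and 14.2 FPKM in GapNC and 5.41, 5.33 and 5.96 FPKM in GapC9, a log2 fold change of −1.61 (limma adjusted p = 0.0159). SEPT9 fell from 17.6 ± 3.58 to 9.54 ± 0.646 FPKM (SD, n = 3; log2 fold change −0.86, limma adjusted p = 0.0379). SEPT2, the highest of the list, averaged 47.4 ± 2.97 and 43.6 ± 2.25 FPKM (SD, n = 3; limma adjusted p = 0.454).

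**Figure D5:**
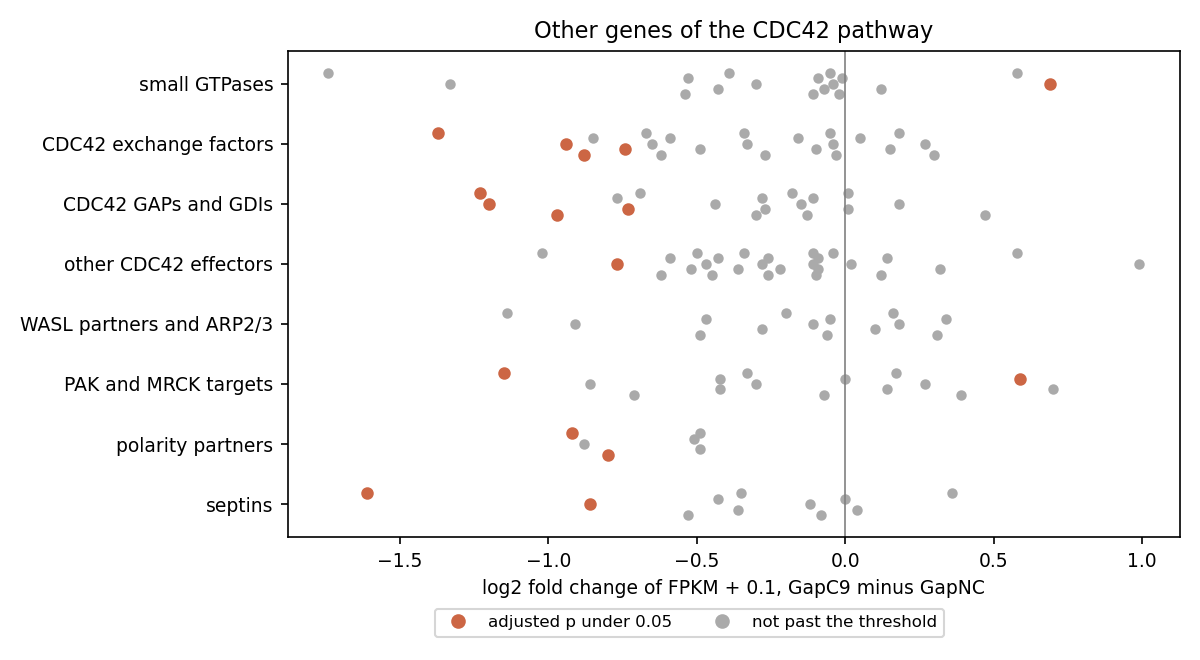
Log2 fold change (GapC9 minus GapNC) of every tested row in the 8 pathway lists, 1 point per row, colored where the adjusted p was under 0.05. Of 16 colored points, 14 lie below 0, and the 2 above it are RND3 and MYL12A.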

How the data were processed

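HCT-116 cells transfected with GapNC or GapC9 gave 3 libraries per group, grouped by their transfection label. Poly(A) RNA was sequenced as paired ends. The submitters' processing notes name Bowtie 0.12.2, HISAT2 2.0 and StringTie 1.3.0, and as build only mm8, a mouse build, so the human build was not given in the sources used here. The authors deposited FPKM values from StringTie in 1 table of 27918 rows, 1063 of which join several genes. Without counts, depth is known only from the step between low FPKM values and no count test was run.

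Rows with a mean of at least 0.1 FPKM (16028) were fitted in R 4.3.3 with limma 3.58.1 (lmFit, eBayes with trend) on log2(FPKM + 0.1), which understates changes of low genes, and p-values were Benjamini-Hochberg adjusted over all rows. The script was tested on simulated data. Ratios within a library were compared by exact 2-sided permutation tests. Annotation, GC content (99.3% of rows tested) and primer positions came from GENCODE 29, promoters from RefSeq.

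The text gives all 10 members, pathway genes that passed the adjusted threshold (1 of the 16 is not reported here by name), the highest-mean gene of each pathway list, and the 3 rows most correlated with each of the 2 members of lowest p. RAC1, CDC42BPG, the other paralogs and the ratios were added after their values were seen. The members and lists were chosen with earlier results of these data known. The 15 alternatives covered pseudocount, filter, scaling, GC correction, variance trend, replicate block and each library left out.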

Additional observations from a re-analysis of the deposited data

How the results depend on the processing

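Over the 15 alternatives CDC42 stayed lower in the libraries labelled GapC9 (log2 fold change −1.14 to −0.92) and so did CDC42BPB (−1.29 to −1.04), with an adjusted p under 0.05 in 8 and 9 of the 15. The count of members past the adjusted threshold, 2, was 0 to 2 with 1 library left out, and that of pathway genes, 16, was 0 to 11. The count under the fold rule, 2, was 1 to 2 with 1 library left out and 1 (CDC42BPB) after scaling to the median, where the ratio of CDC42 was 0.526. Without a filter 9 pathway genes passed and after the GC correction 25 did. Over all rows, 1120 passed as reported, 492 without a filter, 2377 after the GC correction (1236 lower and 1141 higher) and 34 to 814 with 1 library left out. The cause was not tested. Scaling to the median moved the median log2 fold change of all rows from −0.076 to 0.014.

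Replicates share a number across the groups. The deviations of same-numbered libraries from their group means correlated at 0.0970, 0.0398 and 0.0243. Those of libraries with different numbers correlated at −0.0930 to 0.0578. Whether same-numbered libraries were handled together is not stated, and these few values cannot decide it. With the replicate block, 0 members, 0 pathway genes and 0 of all rows passed the adjusted limma threshold (4570 rows at an unadjusted p under 0.05). With the block and the GC correction 0 members and 0 pathway genes passed, and 1 row of all. CDC42 and CDC42BPB had an adjusted p of 0.0608 each with the block, and of 0.0558 each with the GC correction as well.

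Small changes turned sign. After scaling to the median CDC42EP3 was at 0.07 and WASL at 0.01. With 1 library left out, CDC42EP3 ran from −0.14 to 0.06, CDC42SE1 from −0.42 to 0.12, IQGAP1 from −0.05 to 0.10, PAK2 from −0.39 to 0.18 and WASL from −0.33 to 0.22. CASC9 near 0 in every library, the time of harvest and the source of the replicates limit what the comparison can be read as.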
